A study of Mus musculus with 6 samples.

Results

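The Gimap genes, which encode the GTPases of immunity-associated proteins, are represented by 8 of the 26027 genes counted in sorted mouse bone marrow progenitors: Gimap1, Gimap3, Gimap4, Gimap5, Gimap6, Gimap7, Gimap8 and Gimap9. They were taken by symbol. Gimap4 and Gimap6 had been picked because they stood lower in replicates 1 and 2 of the Srsf2 P95H/+ genotype than in the same replicates of wild type, so their genotype differences are given below as a description without a p-value. The other 6 entered by family name alone, and their tests come from fits over the whole count table. They are neighbours of the picked genes and were measured in the same libraries, so their tests are not independent of that choice.

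The cells were Lin-/cKit+/eYFP+ progenitors sorted from whole bone marrow. The mutant genotype was hScl-CreERT R26eYFP Srsf2 P95H/+, with 3 libraries from mice aged 32 weeks, replicates 1 and 2 female and replicate 3 male. The controls were hScl-CreERT R26eYFP Srsf2 +/+ (wild type, WT), also 3 libraries, replicate 1 from a female aged 54 weeks and replicates 2 and 3 from males aged 32 weeks. All mice were C57BL/6 and received tamoxifen. All carried the inducible Cre and the eYFP reporter that marks the cells in which Cre had acted. The genotypes thus differ by the Srsf2 allele, but the groups also differ in sex and age. Srsf2 encodes an SR splicing factor, and P95H is a mutation of myeloid neoplasms. The sort holds a mixture of progenitor types. Sex and age show more than 1 mouse in each genotype. The labels do not say whether P95H/+ replicates 1 and 2, or WT replicates 2 and 3, are separate mice. The p-values may therefore measure technical spread in part.

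GIMAP proteins share a GTP-binding domain and sit mostly on intracellular membranes. They are best known from lymphocytes, where several members set how long T and B cells survive, and mice without Gimap5 also lose normal function of haematopoietic stem cells. The genes lie side by side in one cluster in mammals.

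In mm10 the cluster runs over 123.6 kb of chromosome 6, from 48647234 to 48770851, in the order Gimap8, Gimap9, Gimap4, Gimap6, Gimap7, Gimap1, Gimap5 and Gimap3. All 8 genes are protein coding. Gimap6 and Gimap3 lie on the minus strand and the other 6 on the plus strand. The sequences upstream of 4 of them are shown because these genes differed in how they stood between the genotypes: Gimap4, Gimap6 and Gimap8 stood lower in P95H/+ replicates 1 and 2, and Gimap9 did not. Each is the 200 bases before the RefSeq start site, written along the gene's own strand, with capitals for matches to 6-base core motifs of RUNX (TGTGGT or TGCGGT), ETS (AGGAAG or CGGAAG) and GATA factors (AGATAA or TGATAA) on either strand.
Gimap4, chr6:48684378-48684577, plus strand: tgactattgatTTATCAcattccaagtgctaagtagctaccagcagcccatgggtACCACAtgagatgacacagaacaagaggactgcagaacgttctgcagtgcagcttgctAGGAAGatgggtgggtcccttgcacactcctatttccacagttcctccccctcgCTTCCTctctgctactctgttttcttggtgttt
Gimap6, chr6:48708245-48708444, minus strand: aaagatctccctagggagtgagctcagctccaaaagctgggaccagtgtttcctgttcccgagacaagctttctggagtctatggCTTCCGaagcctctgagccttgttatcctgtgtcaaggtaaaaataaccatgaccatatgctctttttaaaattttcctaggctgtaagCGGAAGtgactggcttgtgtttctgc
Gimap8, chr6:48647034-48647233, plus strand: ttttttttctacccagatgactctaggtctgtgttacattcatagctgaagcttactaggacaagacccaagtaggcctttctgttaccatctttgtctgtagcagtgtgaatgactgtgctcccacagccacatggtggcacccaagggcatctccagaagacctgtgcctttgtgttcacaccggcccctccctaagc
Gimap9, chr6:48675935-48676134, plus strand: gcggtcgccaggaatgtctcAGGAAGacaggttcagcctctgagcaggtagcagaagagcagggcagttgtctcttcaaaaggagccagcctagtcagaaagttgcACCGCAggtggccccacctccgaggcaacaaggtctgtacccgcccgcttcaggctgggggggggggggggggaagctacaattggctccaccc

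Over the whole RefSeq promoter window, 250 bases before to 50 after the start (GRCm38.p6), an ETS core was found in each of the 9 windows of the 8 genes, Gimap8 having a pair of start sites. The share among 32817 mouse promoter windows of that length was 46.5%. A RUNX core was found for Gimap1, Gimap4, Gimap7 and Gimap9, against 22.4% of all windows, and a GATA core for Gimap4 alone, against 18.6%. In Gimap8 the ETS core of the upstream window lies just after its start site, outside the stretch printed. The motifs thus did not separate Gimap9, which holds ETS and RUNX cores, from the members that stood lower. A match is a description of letters and not a bound site.

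Libraries held 10747941 to 22614408 counts in P95H/+ and 16842751 to 23010510 in WT. Levels in CPM are counts scaled to that whole total. Kit, the receptor used in the sort, stood at 476 to 548 CPM in P95H/+ and 482 to 532 CPM in WT. The pair of replicate 3 libraries differed from the rest, with lower levels of genes whose transcripts are poor in G and C, and results are therefore given with and without it. Among tested genes with a transcript GC content from 40% to below 45%, the median gene of P95H/+ replicate 3 stood at 59.5% of the mean of P95H/+ replicates 1 and 2, and that of WT replicate 3 at 69.7% of the mean of WT replicates 1 and 2.

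Gimap6 was the most abundant member in both genotypes. Per kilobase of exon it stood at 8.74 ± 1.28 RPKM in P95H/+ and 15.8 ± 4.65 RPKM in WT (SD, n = 3 each). Gimap9 followed with 5.49 ± 2.55 RPKM in P95H/+ and 5.45 ± 2.92 RPKM in WT, and then Gimap1 with 2.66 ± 0.564 RPKM in P95H/+ and 3.21 ± 0.976 RPKM in WT. The spreads of Gimap9 and Gimap1 overlap in both genotypes, and their order was not the same in every library. In P95H/+ replicate 3 Gimap9 stood at 2.61 RPKM and Gimap1 at 3.12 RPKM. In every other library Gimap9 was the higher, by least in WT replicate 3 (2.28 against 2.09 RPKM). Gimap8 stood at 1.01 ± 0.119 RPKM in P95H/+ and 2.20 ± 0.853 RPKM in WT, Gimap5 at 0.900 ± 0.145 RPKM in P95H/+ and 1.39 ± 0.304 RPKM in WT, and Gimap4 at 0.565 ± 0.130 RPKM in P95H/+ and 1.74 ± 1.02 RPKM in WT. In WT the spreads of these 3 genes overlap. Gimap3, at 0.564 ± 0.455 RPKM in P95H/+ and 0.825 ± 0.397 RPKM in WT, and Gimap7, at 0.303 ± 0.127 RPKM in P95H/+ and 0.507 ± 0.0835 RPKM in WT, had the lowest means in WT. Their spreads overlap, and that of Gimap3 also overlaps the spread of Gimap4 in both genotypes.

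Summed over the 8 genes, the family stood at 60.0, 63.0 and 52.2 CPM in P95H/+ replicates 1, 2 and 3, against 118, 105 and 60.4 CPM in those of WT. WT replicates 1 and 2 are the high libraries, and WT replicate 3 lies between P95H/+ replicates 1 and 2, so the groups overlap. Gimap6 gave 48.8% to 54.1% of these sums in P95H/+ and 55.9% to 60.7% in WT. Without Gimap4 and Gimap6, which were picked for being low, the 6 other members summed to 26.9, 28.1 and 25.4 CPM in P95H/+ and to 47.4, 38.2 and 22.6 CPM in WT, and here WT replicate 3 is the lowest library of all. In bulk RNA, fewer cells of a type and less RNA per cell cannot be told apart.

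**Figure D1:**
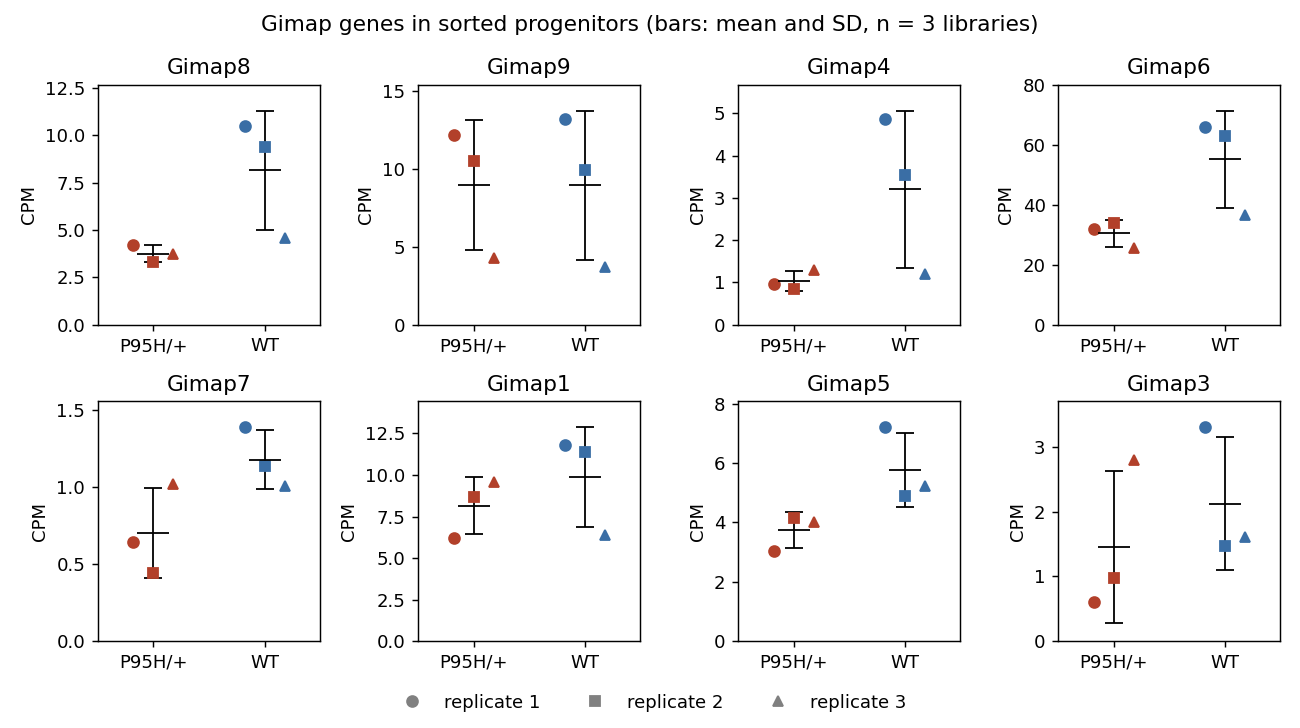
Level of each Gimap gene (CPM, linear axis from 0) in the 3 P95H/+ and 3 WT libraries, with panels in chromosomal order, 1 symbol per replicate number, and bars for the mean and SD. Gimap6, Gimap8 and Gimap5 have every P95H/+ library below every WT library, and in Gimap9 both replicate 3 libraries, at 4.28 and 3.74 CPM, lie far below the other 4.

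The study compared P95H/+ with WT progenitors. With replicates 1 and 2 alone, 5 of the 6 members that entered by name had negative log2 fold changes, as did 50.4% of all genes tested, and Gimap9 stood within its error of 0. With all 6 libraries the count was again 5 of 6, against 47.0% of all genes. Of the 6 members that entered by name, 1 passed edgeR's quasi-likelihood test over 17371 genes, Gimap8, where 0.829% of all genes passed (0.645% as lower genes). All of them but Gimap9, 5 of 6, had both P95H/+ libraries below both WT libraries, where 28.2% of all tested genes did. Their median log2 fold change was -0.95, against 0.00 for all genes tested. In all 6 libraries, Gimap5 and Gimap8, 2 of these 6, had every P95H/+ library below every WT library, as did 5.93% of all genes. With all 6 libraries, 0 of these 6 members passed and 0% of 17144 genes did, 1 of them (Gimap8) had an unadjusted p under 0.05, as did 2.11% of all genes (in replicates 1 and 2, 5 of 6 and 15.6%), and their median log2 fold change was -0.56 against 0.02. Blocking on replicate number gave 1 called gene over the whole table, DESeq2 gave 8 (0.0467%) and limma voom 0, with 0 of these 6 members among them.

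The members picked from these libraries come first. Gimap6, which binds a GABARAP-type autophagy protein, stood at 32.1, 34.0 and 25.5 CPM in P95H/+ replicates 1, 2 and 3, against 66.1, 63.2 and 36.6 CPM in those of WT. The groups do not overlap, and the gap is widest in replicates 1 and 2, where the P95H/+ mean was 51.1% of the WT mean. The fitted log2 fold change was -0.94 (SE 0.09) in the 4 libraries of replicates 1 and 2 and -0.79 (SE 0.28) in all 6.

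Gimap4, which promotes the death of T cells in mice, stood at 0.969, 0.840 and 1.30 CPM in P95H/+ replicates 1, 2 and 3, against 4.87, 3.55 and 1.19 CPM in those of WT. WT replicates 1 and 2 are the high libraries, and WT replicate 3 lies among the P95H/+ libraries, so the groups overlap. In replicate 3 the values rest on 14 counts in P95H/+ (95% Wilson interval 0.776 to 2.19 CPM, counting error only) and 20 counts in WT (0.769 to 1.83 CPM). The interval of WT replicate 3 lies below the levels of WT replicates 1 and 2. For this gene the log2 fold change was -2.18 (SE 0.29) in replicates 1 and 2 and -1.59 (SE 0.53) in all 6 libraries.

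Gimap8, a member with several GTP-binding domains where the others have a single one, fell in replicates 1 and 2. It stood at 4.20, 3.32 and 3.72 CPM in P95H/+ replicates 1, 2 and 3, against 10.5, 9.38 and 4.57 CPM in those of WT. The groups do not overlap, yet WT replicate 3 comes close to the P95H/+ libraries. The log2 fold change in replicates 1 and 2 was -1.37 (SE 0.20, edgeR adjusted p 0.0188), and across the other settings of this 4-library fit its adjusted p ran from 0.000403 to 0.0473. With all 6 libraries it was -1.05 (SE 0.36), with an adjusted p of 1.

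Gimap5, which lies on lysosomal membranes and keeps mouse T cells alive, stood at 3.05, 4.16 and 4.0 CPM in P95H/+ replicates 1, 2 and 3, against 7.21, 4.88 and 5.22 CPM in those of WT. The groups do not overlap, and WT replicate 1, from the older female, is the highest library. Its log2 fold change was -0.56 (SE 0.27, edgeR adjusted p 1) in all 6 libraries and -0.72 (SE 0.25, adjusted p 0.222) in replicates 1 and 2. The 4-library value depended on single libraries. It was -0.96 (adjusted p 0.0396) without WT replicate 2, -0.42 (adjusted p 0.676) without WT replicate 1, -0.53 (adjusted p 0.777) without P95H/+ replicate 1 and -0.93 (adjusted p 0.134) without P95H/+ replicate 2.

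Gimap3, a close relative of Gimap5 that binds Bcl2-type proteins, stood at 0.600, 0.973 and 2.79 CPM in P95H/+ replicates 1, 2 and 3, against 3.30, 1.47 and 1.60 CPM in those of WT. P95H/+ replicate 3 exceeds WT replicates 2 and 3, so the groups overlap. For this gene the log2 fold change was -1.57 (SE 0.44, edgeR adjusted p 0.152) in replicates 1 and 2, and it depended on single libraries. It was -2.01 (adjusted p 0.000413) without WT replicate 2, -0.88 (adjusted p 0.448) without WT replicate 1, -1.28 (adjusted p 0.565) without P95H/+ replicate 1 and -1.93 (adjusted p 0.137) without P95H/+ replicate 2. With all 6 libraries it was -0.56 (SE 0.61, adjusted p 1), and leaving out 1 library moved it between -1.38 (without P95H/+ replicate 3) and -0.09 (without WT replicate 1). Gimap3 and Gimap5 share some transcript sequence: 7.52% of the 50-base stretches of Gimap3 transcripts occur in Gimap5 and 4.53% of those of Gimap5 in Gimap3, so reads there could be split or dropped. No other pair of members shared a stretch of that length.

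Gimap1, needed for the survival of mature mouse lymphocytes, stood at 6.23, 8.67 and 9.58 CPM in P95H/+ replicates 1, 2 and 3, against 11.8, 11.4 and 6.41 CPM in those of WT. WT replicate 3 falls within the P95H/+ range. The fitted log2 fold change was -0.61 (SE 0.18, edgeR adjusted p 0.159) in replicates 1 and 2 and -0.21 (SE 0.32, adjusted p 1) in all 6 libraries. The antisense gene Gimap1os covers 36% of the exon bases of Gimap1 but had only 68 counts over the 6 libraries, and whether counting used strand is not given in the sources used here.

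Gimap7, whose human protein hydrolyses GTP as a dimer, is near the limit of counting, with 10 to 14 counts per library in P95H/+ and 17 to 32 in WT. It stood at 0.646, 0.442 and 1.02 CPM in P95H/+ replicates 1, 2 and 3, against 1.39, 1.14 and 1.01 CPM in those of WT, and the replicate 3 libraries nearly coincide. For this gene the log2 fold change was -1.18 (SE 0.37, edgeR adjusted p 0.182) in replicates 1 and 2 and -0.74 (SE 0.39, adjusted p 1) in all 6. Gm28053, a gene annotated across Gimap7, Gimap1 and Gimap5 on the same strand, shares 3.48% to 6.44% of their exon bases and had 19 counts in all.

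Gimap9 was the exception in the cluster in replicates 1 and 2. In all 6 libraries Gimap1 and Gimap3 also lay within their error of 0. It stood at 12.2, 10.5 and 4.28 CPM in P95H/+ replicates 1, 2 and 3, against 13.2, 9.95 and 3.74 CPM in those of WT, and the libraries separate by replicate 3 and not by genotype. Its log2 fold change was 0.01 (SE 0.18, edgeR adjusted p 0.987) in replicates 1 and 2 and 0.08 (SE 0.53, adjusted p 1) in all 6 libraries, and its sign turned in several settings, among them total counts alone as the scaling of the 4-library fit (-0.02). Gimap9 lies between Gimap8 and Gimap4, both of which stood lower in P95H/+ replicates 1 and 2. The difference between Gimap9 and its neighbours was not tested.

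**Figure D2:**
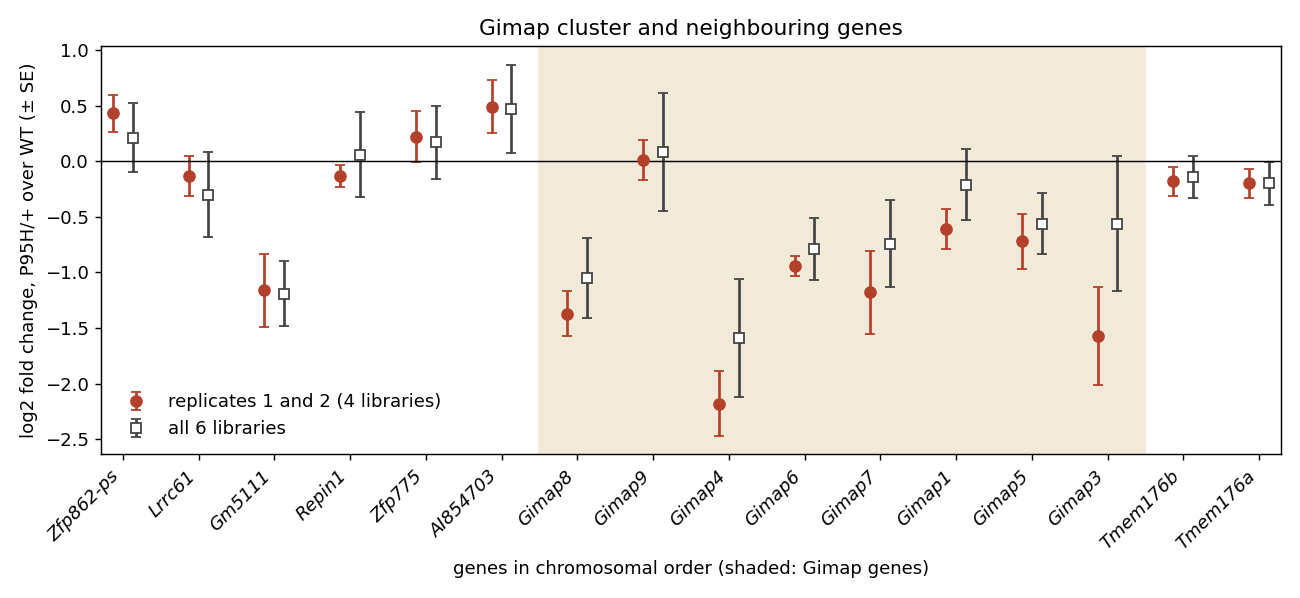
Log2 fold change of P95H/+ over WT with its SE for the 8 Gimap genes (shaded) and the 8 neighbouring genes with a mean of at least 1 CPM, in chromosomal order, from the 4 libraries of replicates 1 and 2 (filled circles) and from all 6 (open squares). In replicates 1 and 2, 7 Gimap genes lie between -2.18 and -0.61 and Gimap9 at 0.01, while 7 of the 8 neighbours lie between -0.20 and 0.49 and Gm5111 at -1.16.

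Neighbouring genes gave a comparison on the same stretch of chromosome 6. Of 32 annotated genes within 200 kb of either end of the cluster or inside it, 23 were in the count table and 8 had a mean of at least 1 CPM. Of these, 0 passed in either comparison, and their median log2 fold change in replicates 1 and 2 was -0.13. Tmem176b, a membrane protein of myeloid and dendritic cells beyond Gimap3, stood at 56.4, 71.9 and 60.0 CPM in P95H/+ replicates 1, 2 and 3, against 82.2, 66.2 and 69.3 CPM in those of WT. Repin1, a zinc finger gene on the other side, stood at 34.5, 39.0 and 76.1 CPM in the P95H/+ libraries, against 40.5, 41.7 and 70.2 CPM in the WT libraries. Their log2 fold changes in replicates 1 and 2 were -0.18 (SE 0.13, edgeR adjusted p 0.571) and -0.13 (SE 0.10, adjusted p 0.576). Among these 8, the noncoding Gm5111 was farthest from 0, at -1.16 (SE 0.33, adjusted p 0.146) from a mean of 1.02 CPM. A further 6 neighbours with a mean under 1 CPM, looked at after the others, could be tested in replicates 1 and 2. Of these 0 passed and 5 of 6 were negative, among them Gm44226 inside the cluster at -1.71 (SE 0.59, edgeR adjusted p 0.216), Aoc1 at -1.17 (SE 0.56, adjusted p 0.355) and Gimap1os at -0.48 (SE 0.42, adjusted p 0.634). Over all 14 tested neighbours, 10 were negative and the median was -0.19, against 50.4% negative and a median of 0.00 over all genes. In replicates 1 and 2 only 0.829% of all genes passed. With so few neighbours, 0 passing therefore does not tell them from genes at large.

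Replicate 3 is set here against replicates 1 and 2 of its own genotype. P95H/+ replicate 3 stood at 144% of the mean of P95H/+ replicates 1 and 2 for Gimap4, 99.0% for Gimap8, 77.1% for Gimap6 and 129% for Gimap1. WT replicate 3 stood at 28.2% of the mean of WT replicates 1 and 2 for Gimap4, 45.9% for Gimap8, 56.6% for Gimap6 and 55.3% for Gimap1. For Gimap3, Gimap7 and Gimap5, P95H/+ replicate 3 stood at 355%, 188% and 111% of the P95H/+ mean, against WT replicate 3 at 67.2%, 79.9% and 86.4% of the WT mean. Gimap9 was low in both replicate 3 libraries, at 37.6% in P95H/+ and 32.4% in WT. The transcripts of Gimap8, Gimap9 and Gimap4, with GC contents of 41.3%, 42.6% and 43.3%, belong to the class that was low in these libraries, and Gimap1, at 57.0%, does not. The part of GC content in these differences was not tested beyond the correction given next.

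Between the replicate 3 libraries, Gimap6, Gimap5 and Gimap8 were lower in P95H/+, by log2 differences of -0.52, -0.39 and -0.30, and Gimap3, Gimap1, Gimap9, Gimap4 and Gimap7 were higher, by 0.80, 0.58, 0.19, 0.13 and 0.02. With the GC trend of each library taken out, the Gimap6 and Gimap5 differences were -0.31 and -0.17 and that of Gimap8 was -0.01. The correction also took out each library's mean deviation and used log2 CPM with a prior count of 2. The shift from the plain differences is thus not due to GC content alone. After this correction the differences of Gimap3, Gimap1, Gimap9, Gimap4 and Gimap7 were 0.87, 0.48, 0.45, 0.37 and 0.20. These are 1 library against 1, with no replicate check.

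**Figure D3:**
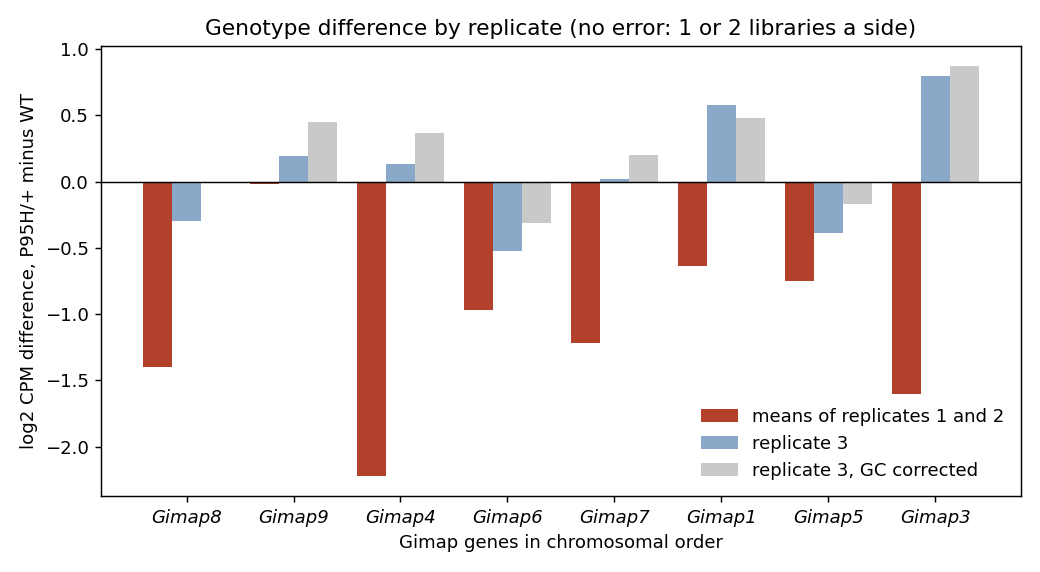
Difference in log2 CPM, P95H/+ minus WT, of each Gimap gene between the means of replicates 1 and 2 (red), between the replicate 3 libraries (blue) and between the replicate 3 libraries after GC correction (grey). The red bars reach from -2.22 for Gimap4 to -0.02 for Gimap9, and the blue bars from -0.52 for Gimap6 to 0.80 for Gimap3.

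Sex and age were not balanced between the genotypes. In the comparison of replicates 1 and 2, no WT library matched the P95H/+ libraries in both sex and age. Genotype cannot be fully told apart from sex and age there. Among females, P95H/+ replicates 1 and 2 lay below WT replicate 1, the mouse of 54 weeks, for all 8 members, with log2 differences from -2.43 for Gimap4 to -0.21 for Gimap9. Among males, P95H/+ replicate 3 lay below both WT replicates 2 and 3 for Gimap5, Gimap6 and Gimap8, with log2 differences of -0.34, -0.97 and -0.91. It lay above both for Gimap3, by 0.86, and between them for the other 4. Sex and the use of replicate 3 in P95H/+ cannot be told apart, since it is the only male of that genotype. With sex in the model of all 6 libraries, 0 of the 6 members that entered by name passed and their adjusted p values were at least 0.786.

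The 8 genes outside the family whose course over the 6 libraries was closest to the summed Gimap level were Slc30a4, Lpp, Dnal1, Rhoq, Zfp382, Plxdc2, Mctp2 and Adam22, ranked by the root mean square difference of centred log2 levels. This distance was 0.113 for Slc30a4, a zinc transporter, and 0.147 for Adam22, against a median of 0.496 over 11552 genes. Slc30a4 stood at 10.4, 10.2 and 6.98 CPM in P95H/+ replicates 1, 2 and 3, against 17.7, 16.1 and 8.61 CPM in those of WT. Lpp, an adhesion scaffold protein, stood at 18.7, 21.7 and 16.9 CPM in P95H/+ and 35.2, 33.9 and 23.2 CPM in WT. All 8 lie on other chromosomes. These 8 were picked as the smallest distances, so setting the family members against them cannot show which follow the sum better. Gimap6, the largest part of the sum, was at 0.104 and Gimap8 at 0.213. Gimap5, Gimap1, Gimap7 and Gimap4 lay between 0.304 and 0.380, also under the median of 0.496. Gimap9 at 0.547 and Gimap3 at 0.615 lay above it. Each member is part of the sum, which lowers its distance.

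Genes tied to GIMAP proteins by binding or signalling held 8 tested members: Bcl2, Bcl2l1, Bax, Gabarapl2, Gsk3b, Foxo1, Foxo3 and Foxo4. With replicates 1 and 2, 1 of 8 fell, 0 rose, and the median log2 fold change was -0.13, where 0.645% of all genes were called lower. The member that fell was Foxo1, a transcription factor of lymphocyte and stem cell maintenance. It stood at 14.6, 15.7 and 20.7 CPM in P95H/+ replicates 1, 2 and 3, against 23.3, 26.3 and 16.5 CPM in those of WT, with a log2 fold change of -0.68 (SE 0.12, edgeR adjusted p 0.0442) in replicates 1 and 2. P95H/+ replicate 3 lies above WT replicate 3, and with all 6 libraries 0 of 8 passed (Foxo1 at -0.30, SE 0.27, adjusted p 1). Gabarapl2, the autophagy partner of Gimap6, stood at 27.4, 26.5 and 13.7 CPM in P95H/+ and 31.6, 29.2 and 26.7 CPM in WT, at -0.14 (SE 0.11, adjusted p 0.571) in replicates 1 and 2. The other large family of immune GTPases, the immunity-related and guanylate-binding GTPases that interferon induces, had 18 tested members with 0 passing in either comparison and a median of -0.27 in both. Of its 18 members, 13 were negative in replicates 1 and 2, against 50.4% of all genes. In all 6 libraries 14 were negative, against 47.0%. Its most abundant members, Ifi47 and Gbp3, had log2 fold changes of 0.03 and 0.09 in replicates 1 and 2. The lowest there was Gbp4, at -2.12 (SE 1.15, edgeR adjusted p 0.516) from a mean of 2.19 CPM.

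T and NK cells, a main site of Gimap expression that lineage depletion should remove, were followed by 19 genes, of which 13 passed the filter on low counts in the 6-library fit and 12 in the 4-library fit. There, 11 of 12 had negative log2 fold changes with a median of -1.21, against 50.4% negative over all genes, and 0 passed. In the 6-library fit 12 of 13 were negative with a median of -0.66, against 47.0% over all genes, and 0 passed. Every P95H/+ library lay below every WT library for 4 of these 13 genes, and above for 0. Over all genes the share was 5.93% lying below and 7.84% lying either below or above. Nkg7, which is far more abundant than the rest, averaged 234 RPKM in P95H/+ and 218 RPKM in WT. Without Nkg7, left out after its level was seen, the list summed to 14.5, 12.3 and 27.4 CPM in P95H/+ replicates 1, 2 and 3, against 43.5, 24.5 and 24.3 CPM in those of WT. P95H/+ replicates 1 and 2 are the lowest libraries, and P95H/+ replicate 3 lies above WT replicates 2 and 3. The defining T cell genes Cd3d, Cd3e and Cd3g together had 13 to 17 counts in P95H/+ libraries (0.738 to 1.21 CPM) and 20 to 53 in WT (1.09 to 2.30 CPM), and Cd3g was at 0 in P95H/+ replicate 1. Lck, a T cell kinase, had a log2 fold change of -1.32 (SE 0.25, edgeR adjusted p 0.0507) in replicates 1 and 2. WT replicates 2 and 3 had like T and NK sums without Nkg7, 24.5 and 24.3 CPM, while their Gimap sums were 105 and 60.4 CPM. WT replicate 3 is also a library with lower levels of transcripts poor in G and C, whose part in these sums was not tested. The part of T and NK cells in the Gimap levels was not tested beyond these values.

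**Figure D4:**
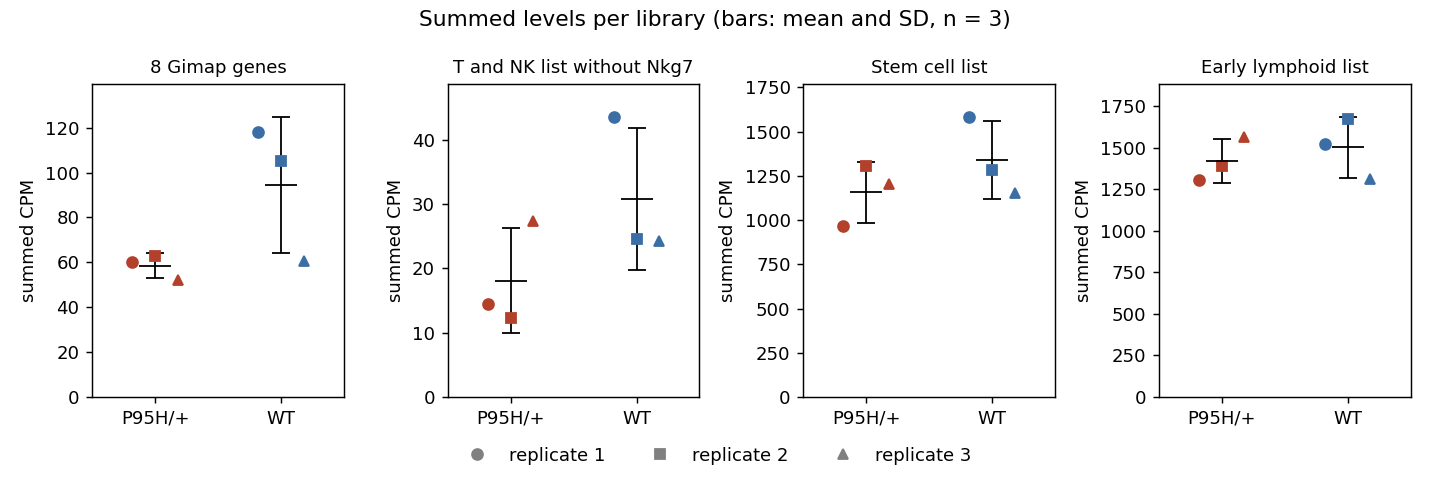
Summed CPM per library (linear axis from 0) of the 8 Gimap genes, of 18 T and NK cell genes without Nkg7, of the stem cell list and of the early lymphoid list, with bars for the mean and SD (n = 3 each). P95H/+ replicates 1 and 2 are low in the first pair of panels, while P95H/+ replicate 3 is low for Gimap genes (52.2 CPM) and not for T and NK genes (27.4 CPM). The replicate 3 libraries had lower levels of transcripts poor in G and C.

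Among early lymphoid genes, 2 of 23 fell in replicates 1 and 2, 0 rose, and 21 were negative with a median of -0.63, where 0.645% of all tested genes were called lower and 50.4% were negative. The members that fell were Dntt, the terminal transferase of lymphoid precursors, at 42.2, 36.8 and 49.0 CPM in P95H/+ and 81.2, 109.6 and 34.3 CPM in WT, and Satb1, a chromatin organiser of lymphoid priming. Their log2 fold changes were -1.24 (SE 0.17, edgeR adjusted p 0.0495) and -0.54 (SE 0.09, adjusted p 0.0272). Over the 6 libraries 0 of 23 passed and the median was -0.10. Every P95H/+ library lay below every WT library for 2 of these 23 genes, and above for 1. Over all genes the share was 5.93% lying below and 7.84% lying either below or above. Dntt, like Gimap4 and Gimap8, was low in WT replicate 3. Their summed level was 1305 to 1564 CPM in P95H/+ and 1311 to 1673 CPM in WT, so the groups overlap.

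Stem cell genes had 1 of 21 tested members lower in replicates 1 and 2, 0 higher, and 19 of 21 negative with a median of -0.45, against 0.645% called lower and 50.4% negative over all genes. This member, Robo4, a receptor of stem cells and endothelium, stood at 3.09, 4.29 and 9.49 CPM in P95H/+ replicates 1, 2 and 3, against 9.69, 9.0 and 8.07 CPM in those of WT (log2 fold change -1.31, SE 0.21, edgeR adjusted p 0.0258). In all 6 libraries 0 of 21 passed, with a median of -0.36. Every P95H/+ library lay below every WT library for 6 of these 21 genes, and above for 0. Over all genes the share was 5.93% lying below and 7.84% lying either below or above. The summed level was 965 to 1303 CPM in P95H/+ and 1153 to 1581 CPM in WT. Endothelial genes, another tissue known for Gimap expression, had 9 tested members, 0 passing, and medians of -0.12 in replicates 1 and 2 and 0.01 in all 6. They summed to 246 to 402 CPM in P95H/+ and 296 to 312 CPM in WT.

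In the remaining lists 0 members passed in either comparison. In replicates 1 and 2 the medians were -0.78 over 12 mature B and plasma cell genes (Ighm at -0.42, SE 0.09, edgeR adjusted p 0.0625), -0.28 over 12 monocyte and dendritic cell genes, 0.11 over 16 neutrophil genes and 0.23 over 11 erythroid and megakaryocyte genes. The 9 genes of progenitor identity had a median of -0.08, with Kit at 0.04 (SE 0.09, adjusted p 0.876). In all 6 libraries the medians of these 5 lists were 0.04, -0.17, 0.38, 0.27 and 0.10. Summed B and plasma cell levels were 337 to 396 CPM in P95H/+ and 288 to 393 CPM in WT, and neutrophil levels were 9094 to 11678 CPM in P95H/+ and 7947 to 12473 CPM in WT. The monocyte and dendritic cell sum was 1462, 1691 and 1268 CPM in P95H/+ replicates 1, 2 and 3, against 1516, 1770 and 1376 CPM in those of WT. It was lowest in P95H/+ replicate 3, as the Gimap sum was, and next lowest in WT replicate 3. The part of these cell types in the Gimap levels was not tested.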

How the data were processed

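Total RNA was depleted of ribosomal RNA and sequenced as paired reads from a stranded kit, per the labels. The submitters' processing notes name mm10, STAR 2.5.3a, Trim Galore with cutadapt, Subread 1.5.1 with featureCounts, Picard 1.96, limma and edgeR; settings are not given in the sources used here. The deposited table of raw counts was the start of every result. The authors' deposited CPM tables were only checked. The unfiltered one equalled counts over library totals within 0.0005. The filtered one equalled counts over the total of its own genes, also within 0.0005. RPKM divide CPM by the exon length of GENCODE M21, which also gave coordinates and GC content.

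Members and gene lists were chosen with earlier results of these data known. All 8 members passed the filter on low counts in both fits. Each genotype test used R 4.3.3 and edgeR 4.0.16 (TMM, filterByExpr, robust quasi-likelihood F test, two-sided, Benjamini-Hochberg over all genes, threshold 0.05), and the code was tested on simulated counts. SE follows from F. Alternatives used DESeq2 1.42.0, limma 3.58.1, other scalings and filters, sex, GC correction, the replicate block and left-out libraries. Deviations from group means of same-numbered libraries correlated at 0.372, 0.350 and 0.613, above 0.1, and the replicate block was run as an alternative. P95H/+ replicate 2 with WT replicate 1 gave 0.463, and P95H/+ replicate 1 with WT replicate 2 gave 0.386. The check thus does not show that same-numbered libraries of replicates 1 and 2 are pairs. The main fits used genotype alone. Named genes are the members, neighbours within 200 kb, the 8 genes most alike with a mean of at least 2 CPM, on log2(CPM + 0.5), and from each list up to 3 that passed or else the 2 most abundant, of which some are given values in the text. Gabarapl2 and the Cd3 genes were also named, after their values were seen. An exact permutation test of 3 against 3 cannot give a two-sided p under 0.1.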

Additional observations from a re-analysis of the deposited data

Results flagged for a closer look

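The Gimap3 levels of the genotypes were ordered oppositely in females and males, and the test of that difference did not pass. Both P95H/+ females (0.600 and 0.973 CPM) lay below the WT female (3.30 CPM), and the P95H/+ male (2.79 CPM) lay above both WT males (1.47 and 1.60 CPM). The genotype difference in males exceeded that in females by 2.98 on the log2 scale (SE 0.58), with an edgeR adjusted p of 0.414 for the interaction (unadjusted p 0.00215), a test chosen after seeing the data. The counts behind these values were 13 to 76 per library, each sex has a single library in 1 of the genotypes, the WT female was older, and the P95H/+ male is replicate 3.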

How the results depend on the processing

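With all 6 libraries, 0 genes passed in edgeR, against 8 with DESeq2, 1 with the replicate block, 1 with the replicate block and GC correction, and 144 without replicate 3 of both genotypes, where 1 Gimap gene (Gimap8) passed. Leaving out 1 library gave 0 to 1 genes (1 without WT replicate 3) and 0 Gimap genes. With replicates 1 and 2, 144 genes passed, against 299 with DESeq2 and 50 with limma voom. The replicate block gave 124, with Gimap8 at an edgeR adjusted p of 0.0242. Leaving out 1 library of these 4 gave 107 to 834 genes (474 without P95H/+ replicate 2, 531 without WT replicate 1, 834 without WT replicate 2) and 1 to 3 Gimap genes, Gimap3 and Gimap5 joining Gimap8 without WT replicate 2. In these fits the lone library is assumed to vary like the pair of the other genotype. Only Gimap9 changed sign. From 0.08 with 6 libraries it went to -0.35 with sex in the model, -0.21 without P95H/+ replicate 1, -0.02 without P95H/+ replicate 2 and -0.29 without WT replicate 3, and leaving out 1 library gave -0.29 to 0.45. From 0.01 with 4 libraries it went to -0.02 with total counts alone, -0.12 without P95H/+ replicate 1 and -0.16 without WT replicate 2, and leaving out 1 library gave -0.16 to 0.21. The cause was not tested. Gimap3, Gimap4 and Gimap7 had few counts in most libraries, which limits their precision.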
